A study of Solanum lycopersicum with 8 samples.

Results

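Among 8404 tomato probe sets, 96 stood at least 0.5 higher on the log2 scale in leaves sprayed with neutralized phosphorous acid (NPA) than in leaves sprayed with water, in every one of 4 matched pairs of arrays. That is 1.14% of the probe sets, and 1 probe set, LesAffx.18686.1.S1_at, met the mirror rule (0.0119%) and was named after its values were seen. The pairs join the NPA and water arrays of the same repeat of the experiment, at 6 h and at 12 h after spraying. The members were thus chosen by their NPA minus water differences on all 8 arrays, and these are given below as a description, with no test. Of the 96 members, 28 carry a gene symbol, for 26 genes, and 68 carry none.

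The plants were cultivar Summer sweet, grown at 27 °C with 12 h of light a day. NPA was made from 1 g phosphorous acid per litre of water, brought to pH 6.3 with potassium hydroxide (1 g per litre), and control plants received water. The acid and the potassium hydroxide were thus given together and cannot be told apart. Each array carried RNA pooled from the leaves of 5 plants, so the spread between single plants was not measured, and the 4 groups (water and NPA at 6 h and at 12 h) have 2 arrays each, 1 per repeat. Expression was read on Affymetrix Tomato Genome arrays, in which a set of short probes reports 1 transcript, and values are on the log2 scale as deposited, where a difference of 1 is a 2-fold change. The number of arrays limits the precision, and later harvest and later hour of day cannot be told apart.

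Phosphite, the ion of phosphorous acid, is used on crops against oomycete diseases. Infected or elicited tomato leaves make pathogenesis-related (PR) proteins, many of them secreted enzymes that attack microbial walls, and salicylic acid is a well known signal for acidic PR proteins. Wounded leaves make another set through jasmonate, with proteins that hamper the digestion of chewing insects. Plants short of phosphate make ribonucleases and phosphatases that release phosphate from other molecules.

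Genes of both defence classes were among the members. Of 13 measured genes on a list of PR proteins, 8 were members, and of 5 measured wound-defence genes 3 were, through 5 probe sets, where 1.14% of all probe sets were members. Lists can hold only probe sets with a symbol, which make up 29.2% of the members but 8.96% of all probe sets. The shares over all probe sets are therefore not a background of named probe sets alone, of which 28 of 753 were members. The lists were also chosen with earlier results of these data known, so the counts per list are a description and not independent support. All 4 differences were above 0 for 11 of the 13 PR probe sets and for 6 of the 7 wound-defence probe sets, against 9.91% of all probe sets. They were also above 0 for 7 of 10 probe sets of a polyamine and arginine list, 4 of them of adc1 and 3 of ARG2, and for 5 of 10 of a detoxification and redox list. The rule itself places every member above 0 in all 4 pairs. Members were 8 of these 11 PR and 5 of these 6 wound-defence probe sets. They were also the 3 of ARG2 and 2 of the 5 for detoxification and redox. These counts are thus mostly set by the rule and add no separate support. The phosphate starvation list had 1 member among 5 genes, RNALE, the list of ethylene and ERF genes 1 among 22, PTI5, and the detoxification and redox list 2 among 9, CEVI-1 and GST-T4. The polyamine and arginine list had 1 among 5, the ARG2 that is also on the wound list. None of 11 jasmonate genes, 4 WRKY genes, 4 phenylpropanoid genes, 2 salicylic acid genes and 5 genes of growth and light was a member. All 4 differences were above 0 for 1 of 11 jasmonate, 2 of 5 WRKY and 1 of 2 salicylic acid probe sets. The counts were 0 of 4 for phenylpropanoids and 0 of 5 for growth and light. They were 2 of 5 for phosphate starvation and 3 of 24 for ethylene and ERF. The 1 jasmonate probe set, of AOS, missed the rule through 1 pair (2.63, 2.08, 0.90 and 0.03) and was named after its values were seen. The phenylpropanoid list does not hold the member THT1-3, although its enzyme uses hydroxycinnamic acids.

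The PR-1 protein gene PR1b1, whose product is secreted to the cell wall space, had the largest mean difference of the named members. At 6 h it read 6.36 and 7.74 in water and 11.75 and 8.64 in NPA leaves (repeat 1, then repeat 2). At 12 h it read 7.48 and 7.51 in water and 13.4 and 10.42 in NPA leaves. Both NPA arrays lay above both water arrays at each time, but the 6 h difference was 5.39 in repeat 1 and 0.90 in repeat 2. PR-P2, for which RefSeq gives the synonym pr4 of a chitin-binding PR family, differed by 4.64 and 1.02 at 6 h and by 5.39 and 2.27 at 12 h. As in PR1b1, the 12 h difference was the larger one in each repeat.

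Enzymes that cut fungal wall polymers made up 4 of the PR members. GluB, a beta-1,3-glucanase, read 5.87 and 7.54 in water against 10.73 and 9.37 in NPA leaves at 6 h, and 6.94 and 7.89 against 12.09 and 9.08 at 12 h. The chitinase gene CHI3 read 8.69 and 8.74 against 12.66 and 10.37 at 6 h, and 8.98 and 7.94 against 13.31 and 10.14 at 12 h. CHI14, another chitinase, was close to even in water, at 4.84 and 5.10 at 6 h and 5.17 and 5.06 at 12 h. In NPA leaves it read 8.82 and 7.62 at 6 h and 8.86 and 6.47 at 12 h, so its repeats parted under NPA. CHI9 had the smallest mean difference of the PR members, 1.25, with 1.55 and 0.74 at 6 h and 2.06 and 0.64 at 12 h. For these 4 genes NPA and water arrays did not overlap at either time.

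P69B, a secreted subtilisin-like protease, stood above water by 3.97 and 1.59 at 6 h and by 3.14 and 1.88 at 12 h. LOC543878, for which RefSeq gives the synonym PR5, read 4.90 and 6.30 in water against 9.03 and 8.07 in NPA leaves at 6 h, and 6.81 and 6.95 against 10.33 and 7.5 at 12 h. Its last difference, 0.55, was near the limit.

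The 5 other genes of the PR list did not meet the rule. P4, a PR-1 protein, differed by 3.31 and 0.06 at 6 h and by 6.28 and 1.17 at 12 h, and so missed it through repeat 2 at 6 h alone. NP24-I, an osmotin-like PR-5 protein, differed by 2.10 and 2.08 at 6 h and by 2.97 and 0.29 at 12 h, and the PR-5 probe set by 1.99 and 0.17, then 2.82 and 0.39. The protease gene P69A stood between -0.16 and 0.49 over the 4 pairs. CHI17 was below water in each pair, by -0.89 and -0.73 at 6 h and by -0.30 and -0.32 at 12 h. The rule thus parted genes of 1 family, P69B from P69A and CHI3, CHI9 and CHI14 from CHI17.

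**Figure D1:**
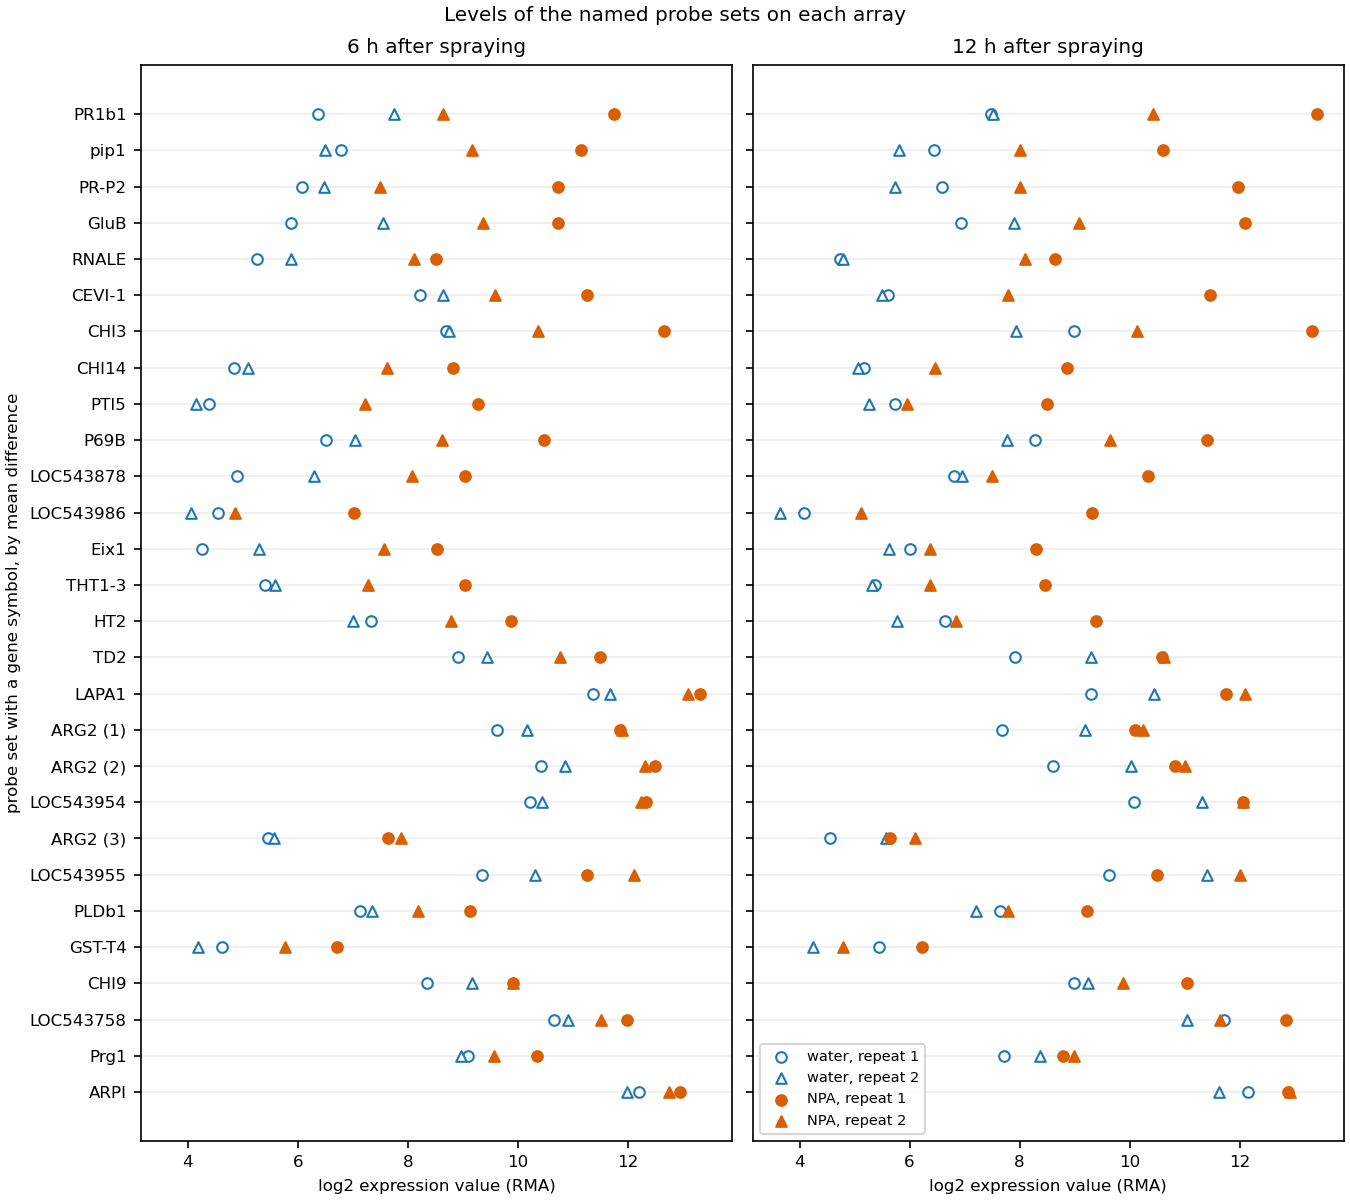
Log2 expression of the 28 named probe sets on each of the 8 arrays, with 6 h on the left and 12 h on the right, water as open blue and NPA as filled orange points, repeat 1 as circles and repeat 2 as triangles. Rows run by mean difference, from PR1b1 at 3.78 to ARPI at 0.88, and at 12 h the NPA circle of PR1b1 at 13.4 lies to the right of its triangle at 10.42, while its water points lie at 7.48 and 7.51.

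Wound-defence members had mean differences of 1.53 to 1.98, and their repeats differed in another way than those of the PR members. LAPA1, an aminopeptidase made in wounded tomato leaves, read 11.37 and 11.67 in water against 13.31 and 13.09 in NPA leaves at 6 h, and 9.30 and 10.44 against 11.74 and 12.10 at 12 h. TD2, a threonine deaminase that breaks down threonine in the gut of leaf-eating larvae, read 8.91 and 9.43 against 11.48 and 10.77 at 6 h, and 7.91 and 9.29 against 10.59 and 10.63 at 12 h. At 12 h the NPA arrays of TD2 were alike and the water arrays were 1.38 apart.

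ARG2 is a wound-inducible arginase, and 3 probe sets, all of them members, report it. One of them, Les.3299.2.A1_s_at, read 10.41 and 10.86 in water against 12.49 and 12.31 in NPA leaves at 6 h, and 8.60 and 10.02 against 10.83 and 11 at 12 h. LesAffx.1.1.S1_at differed by 2.23 and 1.71, then by 2.43 and 1.05, and Les.3299.1.S1_at by 2.19 and 2.31, then by 1.09 and 0.52. The 6 h differences of the 3 probe sets lay within 1.45 to 2.31, while on Les.3299.1.S1_at an NPA and a water array came within 0.08 of each other at 12 h. These probe sets report 1 gene and are not separate support. On the wound list, cathDInh, an inhibitor of the protease cathepsin D, missed the rule through 1 pair (2.33, 2.62, 1.85 and 0.08), and the other arginase gene ARG1 stood between -0.16 and 0.17.

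LOC543954, for which RefSeq gives the synonym PIIF, read 10.21 and 10.43 in water against 12.32 and 12.23 in NPA leaves at 6 h, and 10.07 and 11.32 against 12.06 and 12.05 at 12 h. The NPA arrays were close to each other at both times, and the 12 h water arrays were 1.25 apart. LOC543955 read 9.35 and 10.30 against 11.26 and 12.11 at 6 h, and 9.62 and 11.41 against 10.50 and 12.01 at 12 h, so at 12 h the first NPA array lay below the second water array. Its second probe set, Les.1675.1.S2_at, read between 10.79 and 11.21 on all 8 arrays, with differences from -0.34 to 0.12. The 2 probe sets of this gene thus disagreed, which limits what can be said of the gene.

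MTS1, a monoterpene synthase of glandular trichomes and the 1 measured of 4 markers of these hair cells, differed by 0.96 and 2.06 at 6 h and by 0.06 and 0.35 at 12 h, from water values of 3.30 to 3.97. Its part in the wound-defence results was not tested. The leaf markers CAB4, CAB5 and CAB6A, chlorophyll a/b-binding proteins, read between 13.67 and 14.17 on all 6 h arrays and between 8.05 and 12.40 at 12 h. They were below water in all 4 pairs, by -0.10 to -0.01 at 6 h and by -0.89 to -0.09 at 12 h. Of the markers of other organs, 1 gene each was measured for fruit (Psy1), root (TIP) and flower (TDR6), and none stood on 1 side of water in all 4 pairs, while no gene of a list for senescence and damage was measured. In pooled leaf RNA, a change in the share of a cell type and a change of RNA per cell cannot be told apart.

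RNALE, an extracellular S-like ribonuclease known from phosphate-starved tomato cells, had a difference of more than 2 in every pair. It read 5.26 and 5.87 in water against 8.51 and 8.11 in NPA leaves at 6 h, and 4.73 and 4.79 against 8.64 and 8.09 at 12 h. The NPA arrays stayed within 0.55 of each other over both times, and the 4 differences were 3.25, 2.24, 3.91 and 3.30. The related ribonuclease rnalx stood between -0.10 and 0.19. PAP1, from the same phosphate list, differed by 0.26 and -0.15 at 6 h and by 1.15 and 0.69 at 12 h. PT1, a phosphate transporter, differed by 0.86, 0.60, 0.75 and 0.39, and TPSI1, a phosphate starvation transcript of tomato, by -0.75, -0.36, -0.59 and 0.36.

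RNALE was 1 of 3 members with all 4 differences at least 2. pip1 was another, with 6.79 and 6.49 in water against 11.14 and 9.16 in NPA leaves at 6 h, and 6.44 and 5.81 against 10.61 and 8.01 at 12 h. The third had no symbol, Les.2560.1.S1_at, with 5.75 and 5.41 against 11.91 and 10.02 at 6 h, and 6.45 and 5.36 against 11.75 and 8.32 at 12 h. Its mean difference of 4.76 was the largest of all members, a 27.0-fold ratio. The 4 differences were at least 1 for 32 members.

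PTI5, an ethylene response factor found as a partner of the resistance kinase Pto, read 4.39 and 4.14 in water against 9.27 and 7.22 in NPA leaves at 6 h, and 5.74 and 5.27 against 8.50 and 5.96 at 12 h. The water values were higher and the NPA values lower at 12 h than at 6 h, and the differences went from 4.88 and 3.08 to 2.76 and 0.69. Of the other ERF genes on the list, PTI4 stood above water by 1.02 and 0.61 at 6 h, and PTI6 by 2.04 and 1.19. At 12 h PTI4 differed by -0.07 and -0.03, and PTI6 by 0.80 and -0.21. JERF1, JERF3, ERF2, ERF3 and ERF4 stood between -0.26 and 0.76 at 6 h and between -0.77 and 0.14 at 12 h. Eix1, a receptor-like protein that binds a fungal xylanase, differed by 4.28 and 2.28 at 6 h and by 2.28 and 0.75 at 12 h. PLDb1, a phospholipase D, which releases phosphatidic acid from membrane lipids, differed by 2.01 and 0.84, then by 1.59 and 0.58.

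The members with metabolic roles included CEVI-1, a peroxidase gene known from viroid-infected tomato. It read 8.22 and 8.63 in water against 11.25 and 9.58 in NPA leaves at 6 h, and 5.61 and 5.49 against 11.46 and 7.79 at 12 h. Its water values were about 3 lower at 12 h, and the difference was larger then, 5.85 and 2.30 against 3.03 and 0.95. THT1-3, an enzyme that joins hydroxycinnamic acids to tyramine, differed by 3.64 and 1.69 at 6 h and by 3.08 and 1.05 at 12 h. The hexose transporter gene HT2 differed by 2.55 and 1.78, then by 2.74 and 1.07, and the glutathione transferase gene GST-T4 by 2.09 and 1.58, then by 0.77 and 0.55. HT2 was apart in the 2 treatments at each time, while for GST-T4 the second NPA array at 12 h, 4.79, lay below the first water array, 5.45.

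The remaining named members had differences from 0.59 to 5.23. LOC543986 read 4.54 and 4.05 in water against 7.01 and 4.85 in NPA leaves at 6 h, and 4.08 and 3.64 against 9.31 and 5.11 at 12 h. LOC543758 had differences of 1.32 and 0.61, then 1.12 and 0.60, on a probe set with levels from 10.66 to 12.84, and its other probe set, Les.248.2.A1_at, had 0.91, 0.26, 1.04 and 0.16. Prg1 differed by 1.26 and 0.59, then by 1.07 and 0.62. ARPI had the smallest mean difference of the named members, 0.88, with 0.75, 0.76, 0.73 and 1.29. Its largest difference was thus that of repeat 2 at 12 h, the pair that was smallest for most members.

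The 68 members with no symbol had mean differences between 0.73 and 4.76, with a median of 1.66. After Les.2560.1.S1_at, the largest means belonged to LesAffx.22812.2.S1_at, with 6.21 and 4.10 at 6 h and 3.07 and 1.67 at 12 h, and LesAffx.4763.1.S1_at, with 5.16 and 4.13, then 3.80 and 1.55. Les.5934.1.S1_at followed with 3.44, 2.26, 5.02 and 1.82, and Les.4501.1.S1_at with 4.33, 2.07, 4.18 and 1.88. In each of these 5 the second repeat at 12 h gave the smallest difference. The 96 members carry 86 distinct numbers in their identifiers, and 19 members share a number with another member, so fewer transcripts than probe sets may be behind them. The probe sets of 92 members end in _at, 3 in _a_at and 1, of ARG2, in _s_at, an ending for probes that match more than 1 transcript.

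Just inside the limit, Les.2173.1.A1_at, Les.4291.1.S1_at and LesAffx.8720.1.S1_at had a smallest difference of 0.50. Just outside it, Les.2529.2.S1_at and Les.3418.2.S1_a_at had 0.49, with other differences up to 1.83 and 1.53, and ODD had 0.48, with 2.73, 2.40 and 1.16 in the other pairs. For 71 of the 96 members the smallest difference was that of repeat 2 at 12 h, and for 18 that of repeat 2 at 6 h. Without either array of the 12 h pair of repeat 2, the remaining 3 pairs gave 228 members, all 96 among them.

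The size of the difference depended on the repeat. At 6 h the median of the 96 differences was 2.38 in repeat 1 and 1.65 in repeat 2, and at 12 h it was 1.99 and 0.87. Repeat 1 gave the larger value for 86 members at 6 h and for 88 at 12 h, and for 81 at both times. The same count over all probe sets is not given here. Over all probe sets the SD of NPA minus water was also larger in repeat 1, 0.532 against 0.452 at 6 h and 0.466 against 0.360 at 12 h. The number of all probe sets at least 0.5 above water was 820 in repeat 1 and 559 in repeat 2 at 6 h. At 12 h it went the other way, with 539 in repeat 1 and 635 in repeat 2. Across the 96 members the repeats correlated at 0.669 at 6 h and 0.708 at 12 h (Pearson's r over probe sets, which share arrays and were all chosen to be above the limit). Both NPA arrays lay above both water arrays for 96 of the 96 members at 6 h and for 78 at 12 h, against 21.9% and 17.1% of all probe sets, which are the values that chose the members. At 12 h the arrays thus overlapped for 18 members. With each NPA array set against both water arrays of its time, 54 of the 96 kept a difference of at least 0.5.

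**Figure D2:**
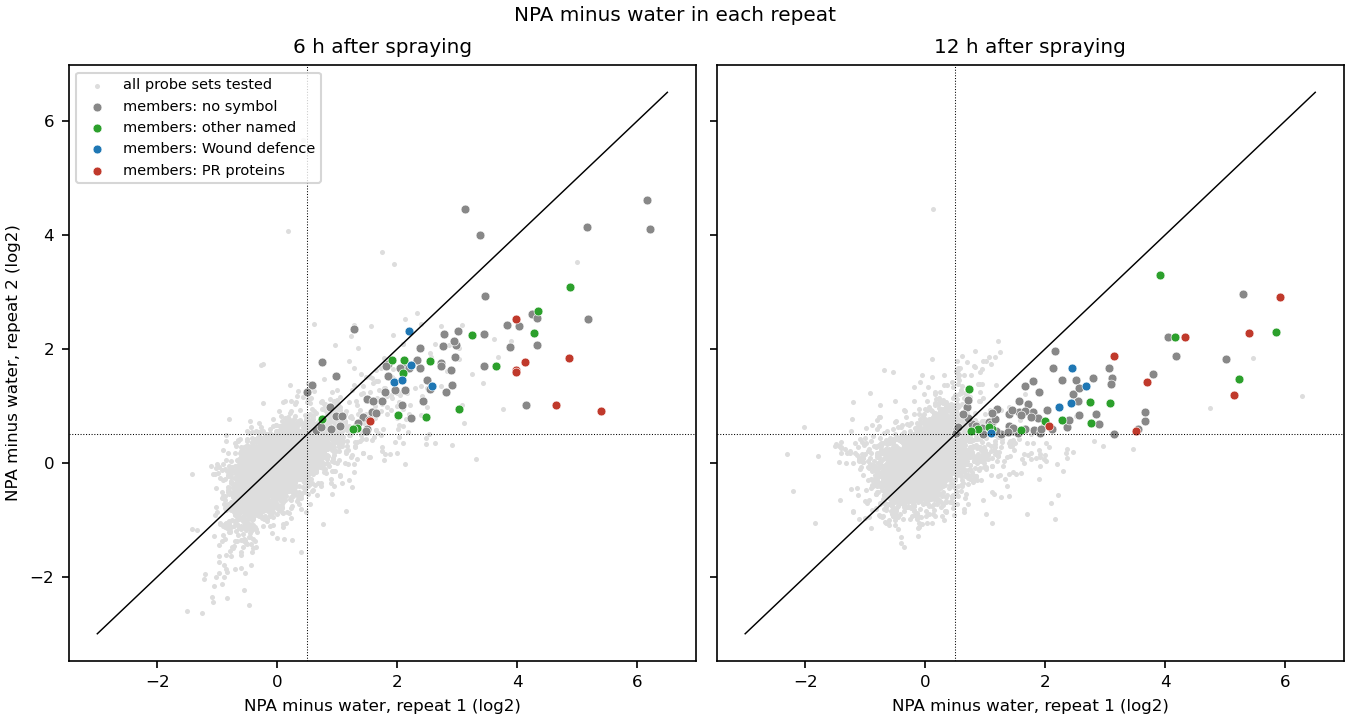
NPA minus water (log2) in repeat 1 on the horizontal and repeat 2 on the vertical axis, at 6 h and at 12 h, for all 8404 probe sets in pale grey and the 96 members in colour by gene list. The line marks equal values and dotted lines the limit of 0.5, and 86 members at 6 h and 88 at 12 h lie below the line of equal values.

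The water and NPA arrays took unlike parts in this. In water leaves the members' median change from repeat 1 to repeat 2 was 0.06 at 6 h and -0.22 at 12 h, and in NPA leaves it was -0.95 and -1.18, where the median of all probe sets was between -0.04 and 0.01 in each group. Among the 8 PR members the NPA arrays of repeat 2 were lower by a median of -1.61 at 6 h and -2.91 at 12 h, and the water arrays were higher by 0.67 at 6 h and lower by -0.04 at 12 h. Among the 5 wound-defence probe sets the NPA arrays changed by -0.18 and 0.17, and the water arrays of repeat 2 were higher by 0.45 and 1.38. The smaller 12 h difference of repeat 2 thus came with lower NPA arrays in the PR members and with higher water arrays in the wound-defence members. This contrast between the lists was not tested, and the 5 wound-defence probe sets come from 3 genes, with 3 of them from ARG2.

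Averaged over all 4 groups, the level itself was compared between repeats, a contrast that the rule did not use, although it holds the same NPA arrays. In limma 4 members were higher in repeat 2 (4.17%, against 2.58% of all probe sets) and 7 lower (7.29%, against 2.83%), at a Benjamini-Hochberg adjusted p under 0.05. LOC543955 was higher by 1.28 (SE 0.17, adjusted p = 0.032), on all 4 arrays of repeat 2 against their partners. The other 3 were Les.2173.1.A1_at at 1.21, Les.3397.1.S1_at at 1.32 and Les.3397.2.A1_at at 1.52, of which the last 2 share a number and were named after their values were seen. GST-T4 was lower by -1.01 (SE 0.17, adjusted p = 0.0406) and was the 1 named gene among the 7. With any 1 of the 8 arrays left out, none was higher and at most 1 lower, where at most 2 of all probe sets passed in either direction.

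NPA minus water was smaller at 12 h than at 6 h in both repeats for 56 members and larger in both for 13, and the repeats went different ways or were equal for 27. The medians of the mean differences were 1.96 at 6 h and 1.43 at 12 h. Of the 68 members with no symbol, 44 had the larger difference at 6 h in both repeats, and of the 28 named ones 12 had. The 7 named probe sets with the larger difference at 12 h in both repeats were those of PR1b1, PR-P2, CHI3, RNALE, CEVI-1, LOC543986 and LAPA1. Among those with the larger difference at 6 h in both were PTI5, Eix1, THT1-3, CHI14 and LOC543878. The difference between the times was not tested, since the rule used both. The same counts over all probe sets are not given here, so these describe the members alone. Over all probe sets the SD of NPA minus water was also smaller at 12 h, 0.466 against 0.532 in repeat 1 and 0.360 against 0.452 in repeat 2.

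**Figure D3:**
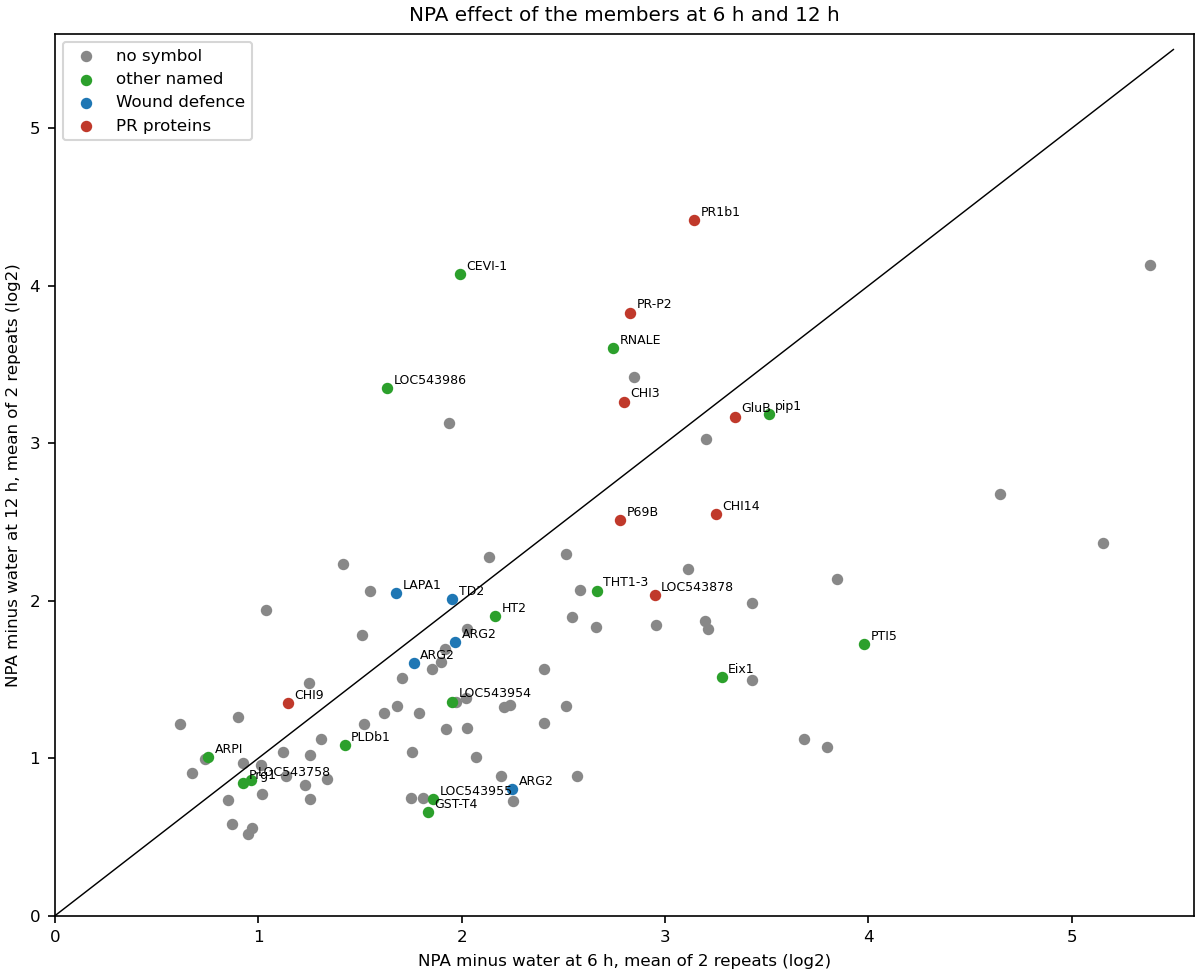
Mean NPA minus water of each member at 6 h (horizontal) and 12 h (vertical), in log2 units over 2 repeats, coloured by gene list, with gene symbols and a line of equal values. PR1b1 lies at 3.15 and 4.42 and CEVI-1 at 1.99 and 4.08, above the line, and PTI5 at 3.98 and 1.73, below it.

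The change from 6 h to 12 h, averaged over water and NPA leaves, is a measure that the rule did not use. By limma 14 members fell (14.6%, against 17.9% of all probe sets) and 2 rose (2.08%, against 20.9%). The share that fell was close to that of all probe sets, and the share that rose was below it. This fit leaves out the repeat, so differences between repeats enter its SE. The SE of this change had a median of 0.379 over the members and 0.120 over all probe sets, so a member had to change more to pass. With the repeat as a block 23 members fell and 10 rose, against 24.5% and 28.9% of all probe sets, and all 16 calls remained. The count that rose was 5 when the repeat 1 NPA array of 6 h was dropped, and 8 when the repeat 2 NPA array of 12 h was. It was 1 without any of 4 others, namely the repeat 2 arrays of 6 h (water or NPA), the repeat 2 water array of 12 h and the repeat 1 NPA array of 12 h.

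Of the 3 wound-defence member genes, LAPA1 and ARG2 fell from 6 h to 12 h. LAPA1 fell by 1.47 (SE 0.25, n = 4 arrays per time, limma adjusted p = 0.0058), with changes of -1.65 in water and -1.28 in NPA leaves. All 3 ARG2 probe sets fell, LesAffx.1.1.S1_at by 1.58 (SE 0.33, adjusted p = 0.0106), Les.3299.2.A1_s_at by 1.41 (SE 0.30, adjusted p = 0.0128) and Les.3299.1.S1_at by 1.17 (SE 0.23, adjusted p = 0.0094). TD2 stood at -0.54 (adjusted p = 0.229), so 4 of the 5 wound-defence probe sets passed. In all 5 the sign of the mean change was negative in water and in NPA leaves alike. For Les.3299.1.S1_at the change in water was -0.89 in repeat 1 and 0 in repeat 2. The wound list does not hold the member LOC543954, with the synonym PIIF. It stood at 0.08 (limma adjusted p = 0.832), with 0.38 in water and -0.22 in NPA leaves.

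None of the 8 PR members passed, without or with the repeat as a block, where 6 of 8 had a positive and 2 a negative change. P69B was higher at 12 h in all 4 same-repeat pairs, with 1.76 and 0.74 in water and 0.93 and 1.03 in NPA leaves (adjusted p = 0.0656 in limma with the block). P69B stood at 1.12 (SE 0.52, limma adjusted p = 0.136), PR1b1 at 1.08 (SE 0.89, adjusted p = 0.367) and LOC543878 at 0.82 (SE 0.65, adjusted p = 0.348). RNALE stood at -0.38 (adjusted p = 0.165) and CEVI-1 at -1.83 (adjusted p = 0.112), with -2.88 in water and -0.79 in NPA leaves. Prg1 fell by 1.03 (SE 0.22, adjusted p = 0.0119) and was the 1 other named gene to pass. HT2, at -1.08, passed with the block alone (adjusted p = 0.0425 with it). The other 9 that fell have no symbol, with changes from -2.32 to -0.42, and the 2 that rose were Les.3071.2.S1_at at 0.75 and LesAffx.29801.1.S1_at at 1.24, named after their values were seen.

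**Figure D4:**
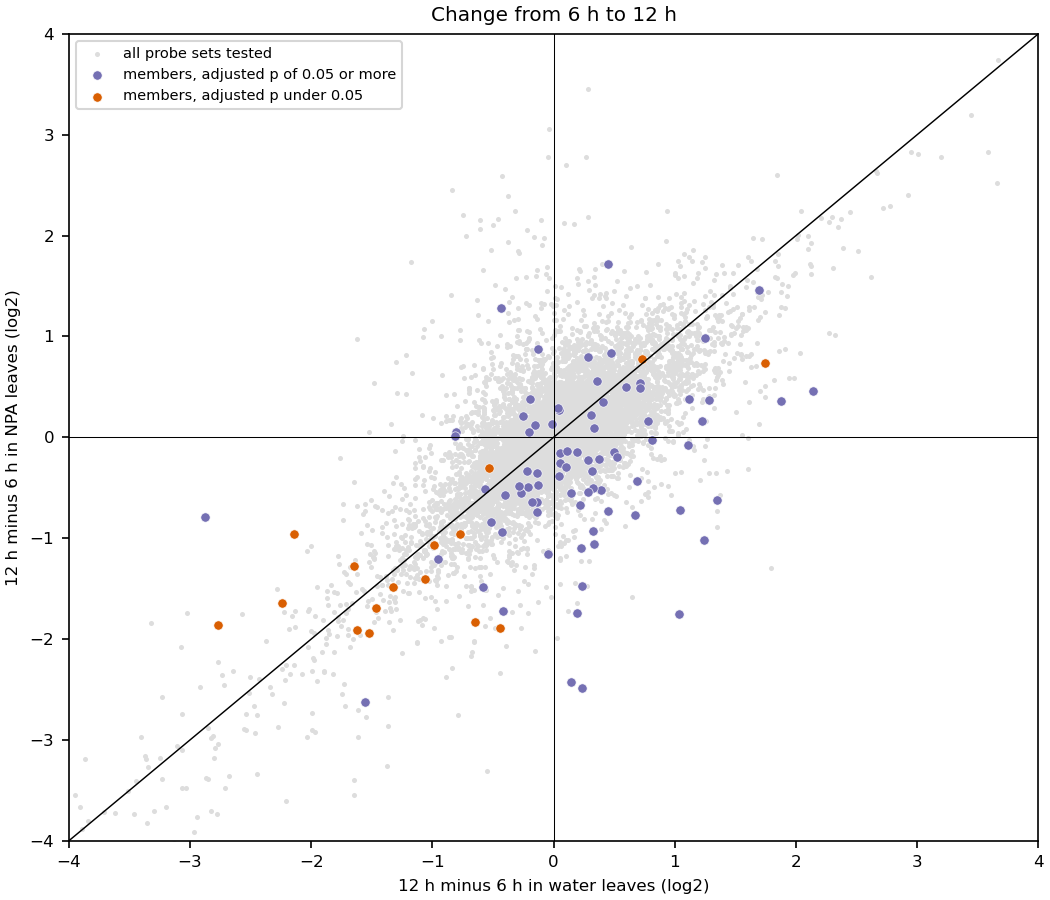
Change from 6 h to 12 h in water leaves (horizontal) and NPA leaves (vertical), in log2 units, for all probe sets in pale grey and for the 96 members in colour, orange where the change averaged over treatments had an adjusted p under 0.05. Axes end at 4, which leaves 32 probe sets outside, and 14 of the 16 orange points lie where both changes are negative.

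In level, the members lay mostly in the lower part of the array's range. Their mean over all 8 arrays had a median of 7.67 against 8.80 for all probe sets, and 65 of the 96 were below the latter. In water leaves 65 members were under the first quartile of all probe sets, 7.51, and in NPA leaves 24 were under that group's first quartile, 7.56. Water values are among those that chose the members, and probes differ in brightness for the same amount of RNA, so these ranks describe probe sets and not transcript amounts. No detection calls were used, so no member can be called absent in water leaves.

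The 26 named genes could all be placed in the RefSeq gene order of assembly SLM_r2.1, and 1 of the 34 pairs on a shared chromosome lay within 10 genes of each other. This was LOC543758 and PR-P2, 3 genes apart, with mean differences of 0.91 and 3.33. P69B and PLDb1 were 27 genes apart.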

How the data were processed

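Tomato leaf RNA was measured on 8 Affymetrix Tomato Genome arrays, grouped by the sample titles. The deposited values are 1 log2 expression value per probe set and array, made by the authors with RMA, per the submitters' processing notes. The RMA version and any filter are not given in the sources, and the log2 scale was taken from RMA and the range of 2.68 to 14.6. Of 8488 probe sets 84 controls were left out. Platform annotation gave 753 of the other 8404 one gene symbol, and 739 of these identifiers were found in RefSeq SLM_r2.1. Coordinates are left out because the array's genome build is unknown here.

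Members had NPA minus water of at least 0.5 in all 4 same-repeat pairs. Members and lists were chosen with earlier results of these data known. Named are all members with a symbol, the 5 largest without one, 3 on either side of the limit, and some genes of lists that hold a member. Cell type markers, from lists with no member, are given as a check of the tissue. Other probe sets outside this are said to be so. The time and repeat contrasts were fitted over all 8404 probe sets with limma 3.58.1 in R 4.3.3 (lmFit, eBayes, Benjamini-Hochberg), on group means, with the repeat added for the repeat contrast. Scripts were tested on simulated data. Repeats were separate runs of the experiment, per the series design text, and p-values measure only the spread between the pooled RNAs. The repeat numbers therefore pair the arrays, whose deviations from group means correlated at 0.316 to 0.596 between equal numbers (6 pairs of groups). The arrays within each group correlated at 0.968 to 0.987, and none were identical. At 12 h the repeat 2 NPA array correlated more with the water arrays (0.978 and 0.983) than with the other NPA array (0.968), and the repeat 1 NPA array more with the repeat 1 water array (0.971). Alternatives were other limits, cross-repeat pairs, median centring, quantile normalization, array weights, an intensity trend, robust variances, a level filter, the block, each treatment alone, and the removal of single arrays, where the lone array was taken to vary as other groups do. A limma fit of NPA against water is not reported, since the rule used that contrast. Promoter motifs were not analysed here. Figures used matplotlib 3.10.9 in Python 3.11.15.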

Additional observations from a re-analysis of the deposited data

Results flagged for a closer look

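Of the 28 named members, 5 changed one way from 6 h to 12 h in both water repeats and the other way in both NPA repeats. Such opposite changes were seen for 17.9% of named members, 14.6% of all members and 10.6% of all probe sets. The difference between treatments was not tested, since it is made of the NPA minus water differences that chose the members. PTI5 changed by 1.35 and 1.13 in water and by -0.77 and -1.26 in NPA leaves (repeat 1, then repeat 2), a difference of -2.26 between the treatments. For Eix1 the changes were 1.76 and 0.33 in water and -0.24 and -1.20 under NPA, a difference of -1.77. LOC543955 changed by 0.27 and 1.11 against -0.76 and -0.10, a difference of -1.12, on the probe set that its second one does not match. GST-T4 changed by 0.83 and 0.06 against -0.49 and -0.97, a difference of -1.18, with 1 water change near 0. LOC543986 went the other way, with -0.46 and -0.41 in water and 2.30 and 0.26 in NPA leaves, a difference of 1.72 that rested mostly on repeat 1.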

How the results depend on the processing

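The 96 members became 186 with a limit of 0.25, 32 with a limit of 1, 54 with each NPA array set against both water arrays, 31 among probe sets above the median level, and between 98 and 228 with 1 array left out. They were 97 after median centring and 82 after quantile normalization, with 95 and 79 of the 96 kept. The median NPA effect lay between 1.49 and 2.41 at 6 h and between 1.02 and 2 at 12 h with 1 array left out. For the change from 6 h to 12 h, the 14 members that fell were 23 with the replicate block, 7 in water arrays alone, and 13 to 21 with 1 array left out. The 2 that rose were 10 with the block, 1 in water or in NPA arrays alone, after median centring or with array weights, 0 above the median level, and 1 to 8 with 1 array left out. The fall of LAPA1, Prg1 and the 3 ARG2 probe sets held under every alternative in which they were tested. They were not tested in each treatment alone. Between repeats, the 4 higher members were 2 above the median level, and the 7 lower ones were 12 with an intensity trend. With 1 array left out these were 0, and between 0 and 1. LOC543955 and GST-T4 lost their call without any 1 array, with adjusted p from 0.0638 to 0.135, while their changes lay between 1.10 and 1.42 and between -1.20 and -0.87.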
